A study of Rattus norvegicus with 3 samples.

Results

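The Acadm locus was taken as all deposited regions that overlap 1 Mb of rat chromosome 2 (chr2:251400000-252400000, assembly rn4), centred on a region at chr2:251899516-251902669 that the authors' annotation assigns to Acadm. It held 64 of the 95306 regions in the 3 deposited lists. Of these, 23 of 35998 were listed with more captured reads in MLP relative to C (the MLP vs. C list), 15 of 33730 in MLP relative to MLP-F (MLP vs. MLP-F), and 26 of 25578 in MLP-F relative to C (MLP-F vs. C). The lists hold all regions at the p cut-off of the caller. The study kept only a small part of both MLP lists after control of the false discovery rate and no region of MLP-F vs. C. No MLP-F vs. C region given here therefore passed the study's own threshold. The central region was among the MLP vs. MLP-F regions that the study kept, and the study also listed Acadm among the genes near its kept MLP vs. C regions. The locus was chosen by the known high scores of its central region in the MLP lists, so the scores, places and list membership given here are a description with no test.

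Livers came from male Wistar rat pups aged 1 day, and the groups were named by the diet fed to the dam in pregnancy: C for the normal diet, MLP for low protein, and MLP-F for low protein with added folic acid. Both low protein groups therefore shared the protein restriction, and no group received added folic acid on the normal diet. Methylated DNA was captured with a methyl-CpG binding domain protein and sequenced (MBD-seq) as 1 pooled library per group, from 6 animals by the sample labels and another number by the paper's text, with the pups of a group taken from a single litter. Diet, litter and library therefore cannot be told apart, and there is no replicate error. The study's read totals put the MLP library deepest and the C library shallowest. MACS, a program that finds regions where one library holds more reads than another, gave each region a score of 10 times the −log10 of its p. The lowest score was 50 in each list, and each score compares the reads of 2 libraries and not the diets. The region lists carry no level of a liver marker, so the tissue label could not be checked in them.

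Acadm encodes medium-chain acyl-CoA dehydrogenase, the mitochondrial enzyme that starts each round of β-oxidation for fatty acids of medium chain length and passes the electrons to the electron transfer flavoprotein. Newborn liver depends on this pathway once milk fat replaces placental glucose, and inherited loss of the enzyme in people causes fasting hypoglycaemia with little ketone production. Methylation of cytosine in CpG pairs is what the binding domain captures, so a stretch with many methylated CpGs is read more often than one with few.

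On the RefSeq map of a later assembly (GRCr8), where only names and order were used, Acadm lay between Rabggtb, a subunit of the enzyme that attaches prenyl groups to Rab proteins, and Slc44a5, a member of the choline transporter-like family. Of the 5 genes on each side, those of the small nucleolar RNAs Snord45a and Snord45c were on the Rabggtb side. The rest were predicted small nucleolar or long non-coding RNAs. The authors' annotation called the Acadm region downstream of the gene and named a 7SLRNA, a B3 and a tandem repeat (trf) for it. It therefore did not place the region at the promoter, and without an rn4 gene map that label could not be checked here. For reference, the RefSeq sequence of the 250 bases before the Acadm start (GRCr8 chr2:245542865-245543114, minus strand) is printed with its CpG pairs in capitals, since CpG is the unit that the capture reads.
Acadm: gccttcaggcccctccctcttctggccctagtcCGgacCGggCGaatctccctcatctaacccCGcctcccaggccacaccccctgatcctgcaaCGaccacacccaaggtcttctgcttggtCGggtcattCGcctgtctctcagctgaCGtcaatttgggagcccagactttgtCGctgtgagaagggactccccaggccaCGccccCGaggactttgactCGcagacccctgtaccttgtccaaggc
These bases held 12 CG pairs, a motif that reads the same on both strands, against a median of 5 over 33469 promoters of the same length. That set is larger than the 23154 RefSeq protein-coding symbols, so it is not 1 promoter per protein-coding gene. At least 1 CG was found in 92.2% of those promoters, and 12 or more in 31.5%. The builds differ, so no listed region was compared with this sequence.

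The Acadm region spanned 3154 bp and stood at the highest score of both MLP lists. Its score was 3100 in MLP vs. C and 3100 in MLP vs. MLP-F, a value shared by 5 regions in each list, so 3100 is a ceiling of the score and the 5 cannot be ordered among themselves. Scores of 1000 or more were held by 67 regions against C, which is 0.186% of that list, and by 73 against MLP-F, which is 0.216%. The locus chosen for its score held 1 such region in each. The region was also long for its list. In the whole MLP vs. C list, 29 were at least as long, and among the 67 with scores of 1000 or more, 3 were. The median length was 1244 bp for those 67 and 673.5 bp for the whole list.

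In MLP-F vs. C the same stretch was listed as a pair of shorter regions with far lower scores. The first (chr2:251899718-251900324) was 607 bp long with a score of 53.6, which placed it 22345th of 25578. The second (chr2:251900423-251901808) was 1386 bp long with a score of 134, at place 2067. A gap of 98 bp separated them, both lay wholly inside the MLP region, and together they covered 63.2% of it. The stretch was therefore listed in each of the 3 comparisons. Of all 35998 regions in MLP vs. C, 1.11% overlapped both other lists, and 0.0861% overlapped 2 or more from MLP-F vs. C. Among the 67 with scores of 1000 or more, the class of the Acadm region, the shares were higher, with 63 listed in MLP vs. MLP-F, 26 in MLP-F vs. C and 22 (32.8%) in both. A score is not a methylation level and grows with the depth of both libraries, so the step from C to MLP-F cannot be set against that from MLP-F to MLP by these scores.

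Around the Acadm region the lists differed. Within 30 kb of it, MLP vs. C held 3 other regions, MLP-F vs. C held 3 and MLP vs. MLP-F held 0. The nearest of MLP vs. C lay 6.37 kb above it (chr2:251909037-251909943, score 97.7), with no counterpart in the other lists. On the other side, at 11.1 kb, a region of 629 bp scored 262 in MLP vs. C (chr2:251887739-251888367), the second highest score of the locus in that list. It was overlapped in MLP-F vs. C, at a score of 83.2, and the MLP vs. MLP-F list had none there. A further MLP-F vs. C region close by was 2409 bp long with a score of only 64.0 (chr2:251883332-251885740). The nearest MLP vs. MLP-F neighbours lay 48.1 kb below and 91.1 kb above. The median gap between MLP vs. MLP-F regions of the locus was 45690 bp, so the lower of these gaps was close to the usual spacing. The regions beside the Acadm region in the lists against C had scores of 262 or less.

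**Figure D1:**
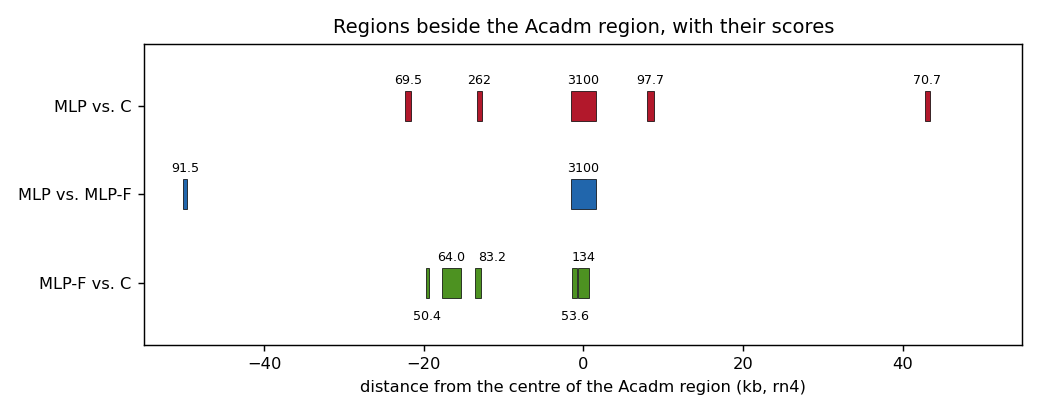
Regions within 55 kb of the centre of the Acadm region in each list, drawn to scale along rn4 (x axis, kb), with the score of each region as a number. The Acadm region is 1 block with a score of 3100 in both MLP lists and 2 shorter blocks with scores of 53.6 and 134 in MLP-F vs. C.

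Over the whole 1 Mb, the other 22 regions of MLP vs. C had scores from 50.8 to 262, and the median over all 23 was 82.0, against 77.4 for the whole list. In MLP vs. MLP-F the other 14 ranged from 51.3 to 179, with a median of 97.0 over all 15 against 81.8 for the list. In MLP-F vs. C the 26 regions ranged from 50.4 to 428, with a median of 70.5 against 69.4. Scores of 100 or more were reached by 7 regions in each list, where 31.1% of all MLP vs. C regions, 36.8% of all MLP vs. MLP-F regions and 19.1% of all MLP-F vs. C regions did so. In both MLP lists the Acadm region alone stood above 1000, and no other region of the locus came near it.

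**Figure D2:**
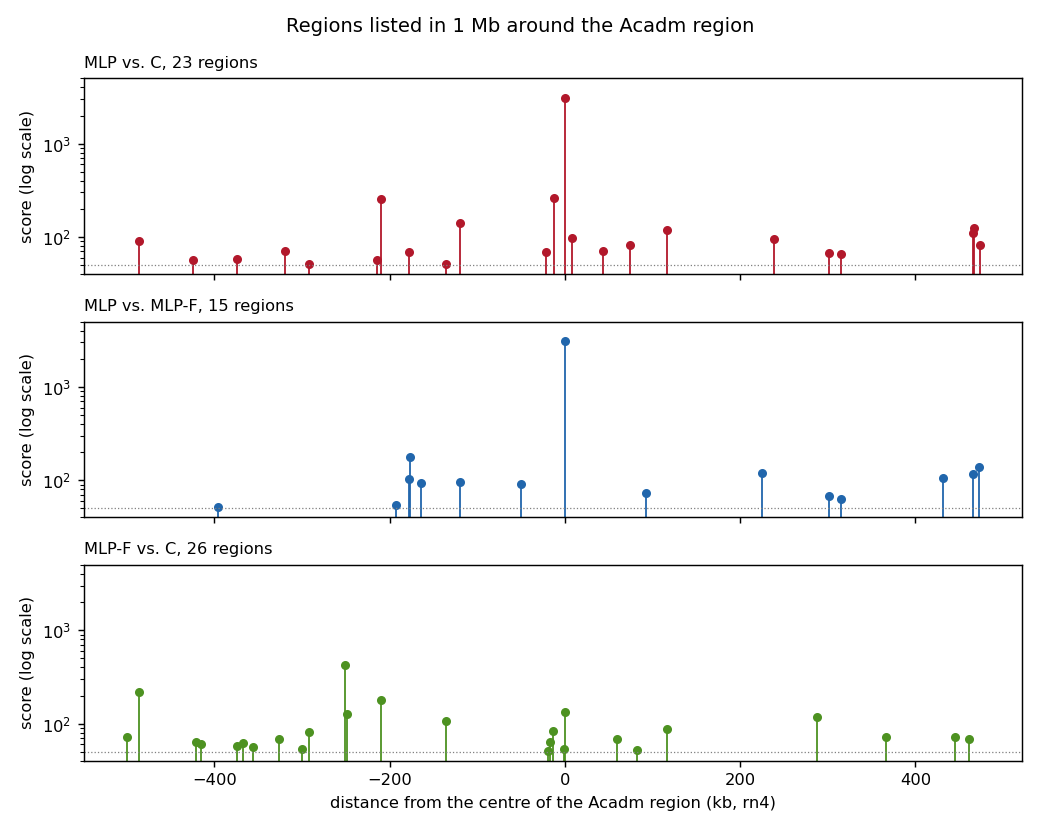
Score (log axis) of every listed region in the 1 Mb around the Acadm region against its distance from the centre of that region (kb), with 1 panel per list and a dotted line at the lowest score of 50. A single region reaches 3100 in both MLP lists, and the highest score in MLP-F vs. C, 428, lies 251 kb from it.

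The highest score of the locus in MLP-F vs. C belonged to a region 248501 bp below the Acadm region (chr2:251649129-251651014, 1886 bp), with a score of 428 at place 79 of that list. A second one (chr2:251651921-251652312) 247203 bp below the Acadm region scored 126. Neither overlapped a region of MLP vs. C or MLP vs. MLP-F. Near the lower end of the locus, chr2:251414237-251415426 scored 218 in MLP-F vs. C, and a region with a score of 91.1 in MLP vs. C overlapped it. At chr2:251690981-251691876 the order was the other way, with 257 in MLP vs. C and 177 in the MLP-F vs. C region that overlapped it. At these places MLP-F was listed above C at the p cut-off of the caller, and the MLP vs. MLP-F list had no region.

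Of the 23 MLP vs. C regions, 6 were also in MLP vs. MLP-F (39.4% of all MLP vs. C regions were), 8 overlapped an MLP-F vs. C region (22.6% of all), 1 overlapped both and 10 overlapped neither (39.1% of all). Of the 15 MLP vs. MLP-F regions, 6 overlapped MLP vs. C (42.1% of all did), 1 overlapped MLP-F vs. C (1.27% of all) and 9 neither (57.8% of all). Of the 26 MLP-F vs. C regions, 9 overlapped MLP vs. C (31.8% of all), 2, both inside the Acadm region, overlapped MLP vs. MLP-F (1.67% of all), and 17 neither (68.1% of all). Each pair of lists shares a library, so these overlaps are not independent of each other. All 14194 overlaps between the MLP lists, the 6 of the locus included, had identical ends, so the shared position of the Acadm region in both is not a second measurement of where it lies.

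Joined where they overlapped, the 64 regions formed 49 separate places. The Acadm region was the only one of the 49 in all 3 lists. Of the others, 5 were in both MLP lists, 7 in both lists against C, 10 in MLP vs. C alone, 9 in MLP vs. MLP-F alone and 17 in MLP-F vs. C alone. The 5 in both MLP lists scored 65.3 to 140 against C and 62.9 to 118 against MLP-F. The highest of them against C (chr2:251780711-251781322) had 140 against C and 97.0 against MLP-F. At chr2:251722733-251723594 the order was reversed, with 68.5 and 105, and a region of MLP vs. MLP-F alone with a score of 179 followed it after a gap of 175 bp (chr2:251723770-251724850).

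At the upper end of the locus the authors' annotation named Tyw3, which encodes an enzyme of wybutosine synthesis in phenylalanine tRNA, for a region of 515 bp (chr2:252367381-252367895) labelled upstream of that gene. It scored 124 in MLP vs. C, at place 7152, and overlapped no region of the other lists. A neighbour 625 bp away (chr2:252366293-252366755) scored 111 in MLP vs. C and 118 in MLP vs. MLP-F. Acadm and Tyw3 were the only genes that the annotation named in the locus, since it covered only the regions that the authors selected. The upper edge of the locus fell within 774 bp of an MLP vs. C region outside it (score 53.2). The lower edge, at the other end, fell within 530 bp of an MLP-F vs. C region inside the locus (score 72.4).

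The locus held more listed regions than the median window in each list. On the placed chromosomes, 86.2% of 2710 windows of 1 Mb held at most 23 regions of MLP vs. C (median 11, 5th to 95th percentile 3 to 30), and 75.2% held at most 15 of MLP vs. MLP-F (median 10). For MLP-F vs. C, 98.2% held at most 26 (median 8, 5th to 95th percentile 1 to 22). More MLP-F vs. C than MLP vs. C regions, as at this locus, were found in 17.0% of windows. That order was not kept in the middle 500 kb of the locus, with 12 MLP-F vs. C and 13 MLP vs. C regions. With scores of at least 100, both lists held 7. The MLP-F vs. C regions were uneven within the locus, with 17 below the Acadm region and 7 above it, against 12 and 10 for MLP vs. C. Windows are not replicates, and the counts also depend on the depth of each pair of libraries.

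**Figure D3:**
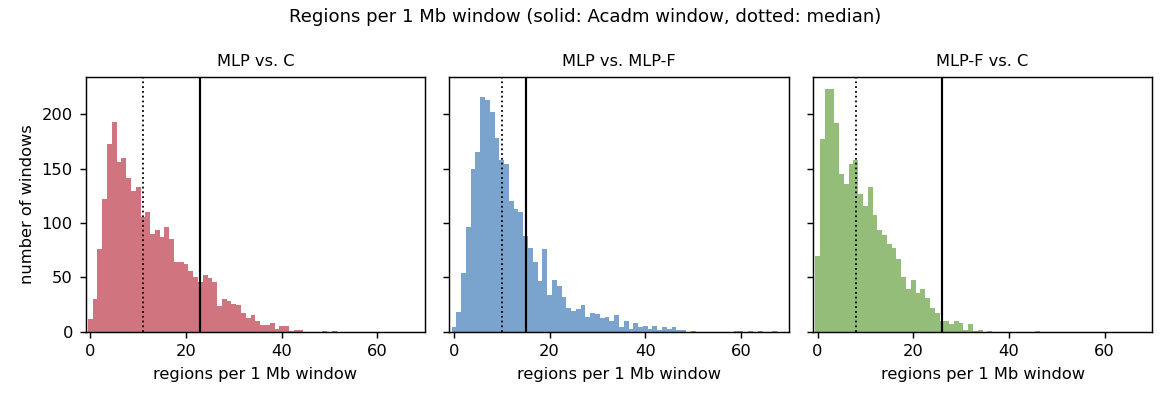
Number of 1 Mb windows (y axis) by the number of listed regions they hold (x axis), for 2710 windows of the placed chromosomes in each list. The solid line marks the Acadm locus, at 23, 15 and 26 regions, and the dotted line the median window, at 11, 10 and 8.

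Among the 399 MLP vs. C regions that overlapped both other lists, the 5 with scores most like those of the Acadm region were found by the distance between their 3 log10 scores, over 3 lists from 3 libraries. The nearest was that of Strap (chr4:174838425-174840403, distance 0.115), a protein that binds the TGF-β receptor and takes part in assembly of the SMN complex, with scores of 3100 against C, 2551 against MLP-F and 112 in MLP-F vs. C. RGD1306565 (chr1:15324363-15329424, distance 0.139) had 3100, 3100 and 184. Sfmbt1, a polycomb-related gene, followed (chr16:6176260-6178343, distance 0.388) with 2905, 2030 and 61.1. The next was a region without a symbol (chr19:44740071-44741085, distance 0.528) with 3013, 943 and 171, and the last was that of RGD1311344 (chr3:133040310-133041705, distance 0.589) with 3100, 901 and 234. These regions were picked for their likeness in these scores, and the distances are taken to a pair of scores at the ceiling of 3100, so their shared order of scores is no finding. The study checked a few single loci by bisulphite sequencing of C and MLP livers. Of those loci, only a region annotated to Sfmbt1 showed no significant difference in methylation. The Acadm region was not among the loci tested that way.

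Of 76 genes of fatty acid oxidation, 4 were named by the authors' annotation of the MLP lists, which named 2.49% of 23154 RefSeq protein-coding symbols. Without Acadm, for which the locus was chosen, it was 3 of 75. Acadm was the only gene named among 11 acyl-CoA dehydrogenases, and none of 14 genes of fatty acid uptake and activation, 8 of the carnitine shuttle, 3 of electron transfer, 10 of the later mitochondrial steps or 3 of ketone body synthesis was named. Of 14 peroxisomal genes Scp2 was named, whose products include the thiolase for branched-chain substrates. Its intronic region (chr5:129126489-129127392, 904 bp) scored 126 in MLP vs. C and 388 in MLP vs. MLP-F. Of 13 regulators, Ppard and Fgf21 were named. Ppard, a nuclear receptor for fatty acids, had an intronic region (chr20:6497650-6498366) with scores of 127 and 55.1. Fgf21, a hormone that fasting liver secretes, had an upstream region (chr1:96063989-96064671) with scores of 126 and 68.2. None of these 3 overlapped a region of MLP-F vs. C, where 22.6% of all MLP vs. C regions did. The annotation names only regions that the authors selected, so a gene that is not named may still have listed regions nearby.

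**Figure D4:**
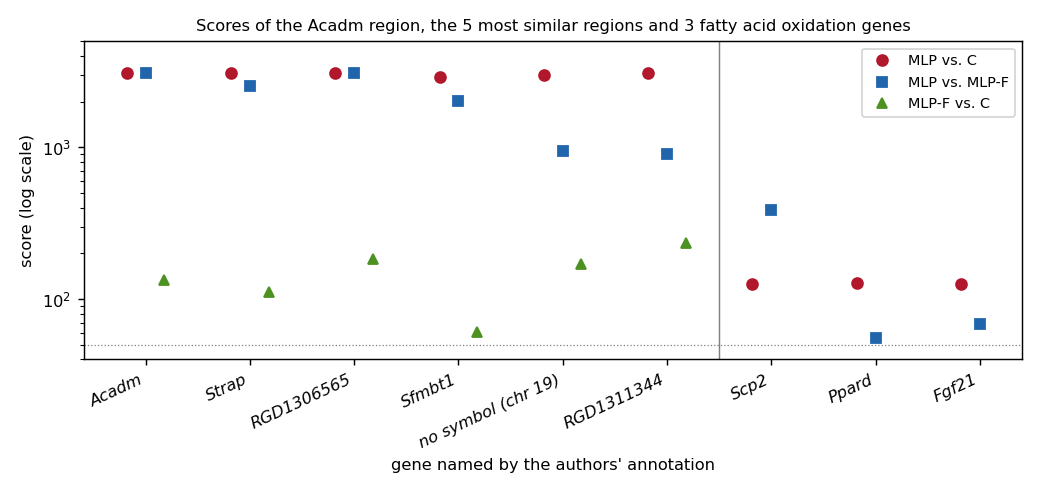
Score (log axis) in each list for the Acadm region and the 5 regions most like it (left of the line) and for 3 other fatty acid oxidation genes (right), where no triangle means that no MLP-F vs. C region overlapped. The MLP scores of the Acadm region are 3100 and those of Scp2, Ppard and Fgf21 lie between 55.1 and 388.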

How the data were processed

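Liver DNA of 3 diet groups was captured by MBD-seq, with 1 pooled library per group. Read pairs were mapped by the authors to rn4 (Bowtie, 1 alignment retained for each pair), and MACS was run on pairs of libraries. The submitters' notes also name CASAVA, with versions not given in the sources used here for any of these tools. The deposited lists give a position and a score per region, 10 times the −log10 of the MACS p, with no read counts, so depth per region is unknown. Groups were taken from the diet labels. Regions lower in the first library of a pair, the expression arrays and the authors' fold and FDR columns were not used here.

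Starts were converted to 1-based positions. Overlap meant at least 1 bp. Places are by score, with ties at the last place. Windows of 1 Mb were tiled from the first base of each placed chromosome, with the largest listed end as its length. Overlaps, places and window counts were checked on simulated intervals. No test was made, since each group has 1 library. Genes named were Acadm, those that the authors' annotation names in the locus, the 5 RefSeq neighbours on each side of Acadm, the members of a list of fatty acid oxidation genes that the annotation names, and the 5 regions nearest in their 3 scores. The locus, rule and list were chosen with earlier results of these data known. Alternatives were a score of at least 100, other windows, other overlaps and other ties. Promoter sequence came from RefSeq (GRCr8), and the rn4 sequence was not used here. Python 3.11.15, numpy 2.4.6, pandas 2.3.3 and matplotlib 3.10.9 were used.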

Additional observations from a re-analysis of the deposited data

How the results depend on the processing

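Of 36 alternatives to 13 values, 19 left the value within 1.5 times (counts and places) or within its 95% Wilson interval (percents of windows), and 17 did not. Windows are not replicates, so that interval served only as a yardstick for a shift and does not measure the uncertainty of a percent. With a score of at least 100 the locus held 7 regions in each list, and with that minimum in both lists 2 regions overlapped in each of the 4 list pairings counted. The middle 500 kb held 13 regions of MLP vs. C, 9 of MLP vs. MLP-F and 12 of MLP-F vs. C. Each of these settings drops regions by construction. Against chromosome 2 windows alone, the percent of windows with at most as many regions was 91.9% in MLP vs. C, 86.0% in MLP vs. MLP-F and 99.2% in MLP-F vs. C. With scores of at least 100 it was 85.9% in MLP vs. MLP-F, and 99.1% in MLP-F vs. C. The cause of these shifts was not tested. With ties at the first place, the Acadm region stood at place 1 in both MLP lists in place of 5. No paired analysis was possible because each group has 1 library and the results come from no test, and for the same reason no replicate could be left out.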

Other observations

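Of the 6 regions of the Acadm locus that both MLP lists share, 1 had the same score in each below the ceiling of 3100, chr2:252202606-252203237 with 67.1. The Acadm region stood at the ceiling in both, where equal values do not show equal enrichment. Of the other 4, 2 scored higher against C and 2 against MLP-F. Over the whole lists, 770 of 14194 shared regions (5.42%) had identical scores below the ceiling and 3 stood at it in both, 6498 scored higher against C and 6923 against MLP-F. The chr2:252202606-252203237 region lay 299936 bp from the Acadm region, was 632 bp long and overlapped no region of MLP-F vs. C.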
